A study of Mus musculus with 26 samples.

Results

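Immortalized mouse embryonic fibroblasts of the parental line WC were studied after infection with a retroviral vector carrying v-src, against the same line infected with the empty vector. The 3 arrays titled as WC with the v-src vector and the 3 titled as WC with the empty vector were taken by their titles, 6 of the 26 arrays in the series. The labels name the vectors pBabe-human v-src and pBabe-puro, so all 6 samples had gone through infection with a pBabe vector and differed in its insert. The other 20 arrays held the lines WA and WB with the same vectors and all 3 lines with a c-myc vector, and they entered the fit that set the spread. The v-src arrays of WA, 3, and of WB, 2, with 3 empty vector arrays of each line, served to show where WC differed; replicate 1 of WB with v-src was not analysed here. Each line stands for itself, and the labels do not say whether its replicates came from separate infections or cultures. The p-values below therefore speak of array-to-array spread within a line, and part or all of that spread could be technical. The series set out to try a signature of anchorage-independent growth, taken from human breast cancer lines, on MEFs transformed with c-Myc or v-Src.

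v-Src is the transforming tyrosine kinase that Rous sarcoma virus carries, a form of cellular Src that lacks the regulatory tail tyrosine through which Csk holds the normal enzyme inactive. In fibroblasts it phosphorylates focal adhesion and cytoskeletal proteins, and it signals through the ERK cascade, PI3 kinase and STAT3. Cells transformed by it are known to round up, lose stress fibres and matrix, secrete proteases and raise glycolysis.

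Signals are the authors' linear probe set intensities, scaled alike on every array, and each gene is given by 1 probe set. Differences are of log2(signal + 23), v-src minus empty vector, with the SE of limma, and a gene is said to have risen or fallen where its Benjamini-Hochberg adjusted p from limma over all 13018 genes was under 0.05. Folds are taken from these differences, with the 23 included, and are not ratios of the signals. Values of a gene are given in the order of replicates 1, 2 and 3. Signals are compared between arrays for 1 gene and not between genes. The median signal of the 6 arrays lay between 107.4 and 130.5. Over all genes tested, log2 values of WC arrays of the same vector correlated at 0.967 to 0.982 and those of different vectors at 0.916 to 0.93, a description across genes, which are not replicates.

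The fibroblast label was borne out by 16 fibroblast markers, of which all passed the filter on low signals and 0 lay under 100 in both groups. Not all were bright, since the mean signal of Lum was 98 with the empty vector. That of Fap was 105.9 with the empty vector and 87.65 with v-src. The summed signal of the 16 was 116800 to 158600 in the empty vector arrays and 125600 to 137100 in the v-src arrays. Within that sum 6 of the 16 were called higher and 4 lower, where 13.8% and 15.1% of all genes were. Mean signals went from 284.9 to 16430 for Dcn and from 1777 to 11150 for Pdpn, and from 19370 to 5366 for Col1a1 and from 3630 to 896.4 for Pdgfrb. Markers of other cells were low only in part. The neural marker Stmn2 had mean signals of 4831 with the empty vector and 4686 with v-src, and the chondrocyte factor Sox9 of 895.9 and 825. The summed signal of 15 macrophage and blood cell markers was 1630 to 2339 with the empty vector and 5141 to 5679 with v-src, and 4 of the 15 lay under 100 in both. Nearly all of that difference came from the tetraspanin Cd53, at 60.1, 59.4 and 97.0 against 1886, 1401 and 1749, and the basophil protease Mcpt8, at 106, 18.2 and 34.8 against 1801, 1601 and 1782. The signals of Ptprc and Itgam, both among those 4, averaged over replicates, were 38.7 and 46.0 with the empty vector and 56.8 and 25.6 with v-src. Other markers lay above 100 with the empty vector and with v-src, such as Csf1r (429.7 and 540.6), Adgre1 (154.8 and 190.2) and Laptm5 (253.7 and 174.3). The sums of 11 epithelial markers, 1783 to 2316 against 3181 to 6974 for the empty vector and v-src, also differed, mostly through Epcam (log2 difference 2.50, which was not called without v-src replicate 3, at 2.08). Endothelial markers (10, of which 6 under 100 in both groups) summed to 1021 to 1124 and 773.8 to 1116, and skeletal muscle markers (10, with 4 under 100) to 1261 to 1498 and 935.1 to 1164. Neural and glial markers (9, with 1 under 100) summed to 7401 to 7971 and 8952 to 9151, with differences of both signs within that sum. The transcription factor Sox2, which the filter left out of the test, went from a mean of 5.22 (range 1.99 to 6.92) to 1071 (1032 to 1139). The intermediate filament nestin (Nes) rose by 0.80 and the microtubule protein Map2 fell by 2.88. The markers of adipocytes and chondrocytes (9, with 3 under 100) summed to 3426 to 4918 and 2038 to 2363. Of these, Col2a1 (-4.68) and Comp (-1.44) fell. Fabp4 (1.22) and Acan (1.00) rose, the latter not called without empty vector replicate 2 or v-src replicate 3. The part of other cells in the results below was not tested. In such bulk samples, fewer cells of a type and less RNA in each cell cannot be told apart.

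v-src changed 3765 of the 13018 genes tested in WC (28.9%), 1794 upward (13.8%) and 1971 downward (15.1%). The counts of list members that rose or fell in WC, given below, are to be read beside these 2 shares. The median difference over all genes was -0.02. Among the called genes, 523 rose and 401 fell by at least 2-fold, 140 rose and 90 fell by at least 4-fold, and 15 rose and 7 fell by at least 16-fold. In 5162 genes (39.7%) the 3 v-src arrays did not overlap the 3 empty vector arrays. In brief, genes of the interferon response, ERK output, hypoxia and glycolysis were prominent among the rises. Contractile proteins, matricellular proteins, collagens and BMP pathway genes were prominent among the falls.

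The gene with the largest rise among those tested was Il33, which encodes an alarmin cytokine of the interleukin-1 family. Its signal was 39.4, 18.8 and 32.6 in the empty vector arrays and 9578, 7915 and 8934 in the v-src arrays. All v-src arrays thus lay above all empty vector arrays, with a log2 difference of 7.39 ± 0.34 and an adjusted p of 4.45e-14. Mmp13, the collagenase that cleaves fibrillar collagen, went from 63.9, 35.0 and 37.3 to 9660.2, 8538 and 9365, a log2 difference of 7.10 ± 0.30 (adjusted p = 1.16e-14). Serpinb2, an inhibitor of plasminogen activators, went from 31.1, 32.1 and 31.5 to 4538, 3261 and 4517, with 6.23 ± 0.22. Upp1, the uridine phosphorylase of pyrimidine salvage, went from 8.50, 5.33 and 49.0 to 3211, 2341 and 3118, with 6.17 ± 0.40. In these 4 genes the 2 groups of arrays stood far apart, since the empty vector signals lay at or under 63.9 and no v-src signal was under 2340.6.

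Decorin (Dcn), a small leucine-rich proteoglycan that binds collagen and growth factors, is as a rule abundant in fibroblasts. In WC with the empty vector it was low, at 339.8, 331 and 184, and with v-src it reached 15838, 16372 and 17076. The log2 difference was 5.78 ± 0.37, a fold of 55.1 (adjusted p = 1.64e-11), and the groups did not overlap. Lumican (Lum), a related proteoglycan, went from 152, 64.4 and 77.7 to 1811, 1862 and 1854, with a difference of 4.01 ± 0.38. Lum was not among the 12 largest rises, which were, beside Il33, Mmp13, Serpinb2, Upp1 and Dcn, the aldo-keto reductase Akr1c18 (4.85), the secreted glycoprotein Stc1 (4.70), Mcpt8 (4.69), the interferon-induced Ifit1bl1 (4.38) and Mndal (4.23), the stromelysin Mmp3 (4.29) and Tcim (4.29). Each of the 12 had all 3 v-src arrays above all 3 empty vector arrays, as the rule for naming them required. The filter on low signals kept 3 genes out of this ranking that passed 4.23, the last of the 12, when no filter was set: Sox2 (5.28), Slitrk6 (4.69) and Ms4a4d (4.40).

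Gask1b fell most among the genes tested. Its signal was 4349, 4960.2 and 5541 with the empty vector and 109, 81.3 and 112 with v-src, a log2 difference of -5.33 ± 0.16 (adjusted p = 7.99e-17). Smoc2, a secreted calcium-binding matrix protein, went from 2325, 2542 and 3235 to 88.8, 46.3 and 69.4, with -4.91 ± 0.27. Ccn2, also known as connective tissue growth factor, a matricellular protein induced by TGF-beta and by YAP, went from 14803, 15056 and 15885 to 560.3, 501 and 599, with -4.73 ± 0.22. The v-src arrays of all these genes lay below every empty vector array. Col2a1, the cartilage collagen chain, went from 2429.6, 2202 and 1574 to 51.9, 81.0 and 42.8, with -4.68 ± 0.33. The remaining large falls were in the glutamate transporter Slc1a6 (-4.66), the smooth muscle genes Cnn1 (-4.59) and Lmod1 (-4.27), the retinaldehyde reductase Dhrs3 (-3.93), periostin (Postn, -3.68), the imprinted gene Mest (-3.58), Fam20a (-3.58) and the latent TGF-beta binding protein Ltbp2 (-3.58). Without a filter, Rtl3 (-4.72) and Moxd1 (-3.64) would have stood among these 12.

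**Figure D1:**
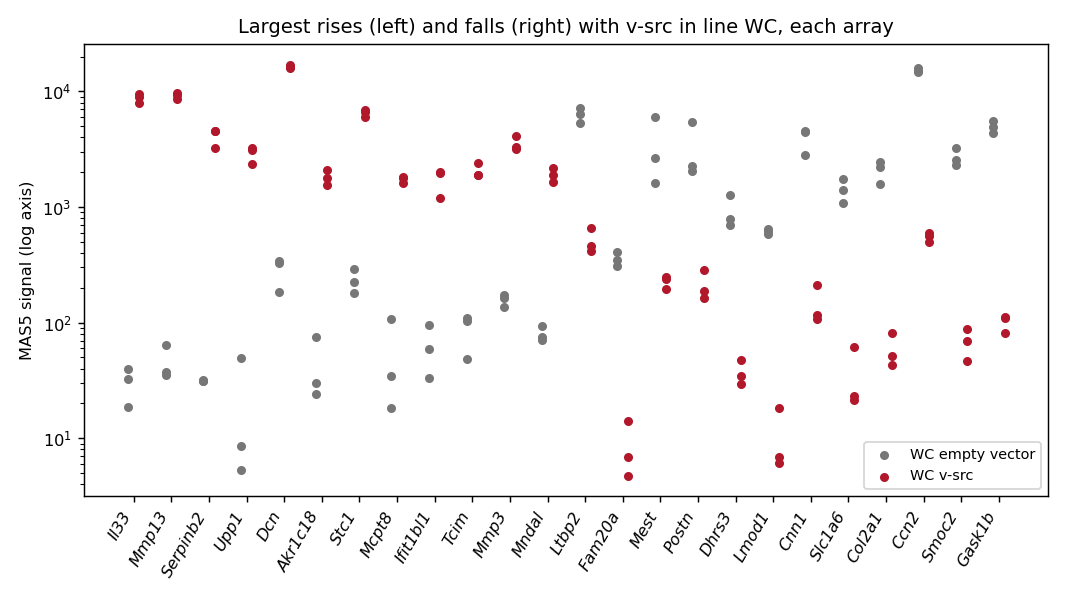
MAS5 signal on a log axis for each of the 3 empty vector arrays (grey) and 3 v-src arrays (red) of line WC, for the 12 genes with the largest rise and the 12 with the largest fall. The red and grey points of a gene do not overlap, which the choice of these genes required; Il33 and Mmp13 lie highest above their empty vector arrays and Gask1b furthest below.

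**Figure D2:**
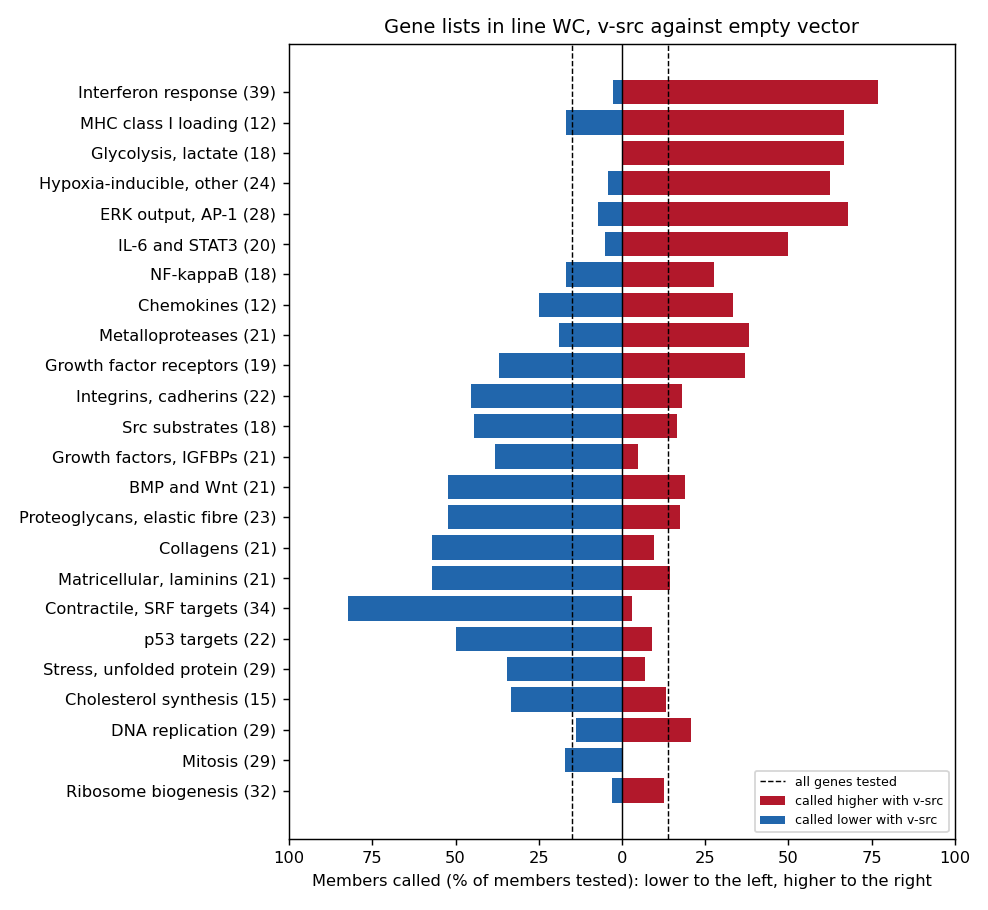
Share of the tested members of each gene list (number in brackets) called lower (blue, to the left) or higher (red, to the right) with v-src in line WC, in percent, with dashed lines at the shares for all genes tested, 15.1% lower and 13.8% higher. The interferon list reaches furthest to the right with 30 of 39 members and the contractile list furthest to the left with 28 of 34.

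The mouse Src probe set may not detect the v-src transcript of the vector, so it does not check the infection. Its signal was 1296, 1319 and 1392 with the empty vector and 1658, 1249.5 and 1322 with v-src, and the difference of 0.07 ± 0.12 was not called (adjusted p = 0.744). Of 9 tested genes of Src family kinases and their regulators, 0 rose and 3 fell (all genes 13.8% and 15.1%), with a median of 0.07. The fall that stood out was in Pag1, the membrane adaptor that brings the inhibitory kinase Csk to Src. Pag1 went from 766, 825 and 778 to 116, 151 and 118, without overlap and with a difference of -2.43 ± 0.29 (adjusted p = 4.66e-07). Other probe sets of Pag1 with a mean of at least 100 had smaller differences, of -0.10, -0.46 and -1.17. The ubiquitin ligase Cbl (-0.50) and the phosphatase Ptpn11 (-0.48) fell as well, and for each of these 2 another probe set of the same gene had the opposite sign. Csk itself (0.12), Fyn (0.21) and Yes1 (0.14) were not called.

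Transcripts of Src substrates went in both directions. Of 18 tested, 3 rose and 8 fell, where 13.8% of all genes rose and 15.1% fell. The 8 falls became 5 when v-src replicate 1 or 3 was left out. The focal adhesion protein tensin 1 (Tns1, -1.33), p120 catenin (Ctnnd1, -1.20) and caveolin 1 (Cav1, -1.02) fell most. Caveolin 1, the coat protein of caveolae, was at 13758, 15389.7 and 11671 with the empty vector and 6628, 6681 and 6620.3 with v-src, without overlap. Sh3pxd2b, an adaptor of podosomes, rose by 1.02, although another probe set of it had the opposite sign, and the docking protein Dok1 rose by 0.89. Cortactin (Cttn, -0.10) was not called.

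Genes induced by the ERK cascade rose in number. Of 28 tested genes of ERK output and AP-1, 19 rose and 2 fell, with a median of 0.98 against -0.02 over all genes. Errfi1, a feedback inhibitor of the EGF receptor, rose by 3.13 ± 0.12. Dusp6, the phosphatase that removes phosphate from ERK, went from 568, 754 and 824 to 5563, 4990.1 and 5249, a difference of 2.86 ± 0.16 (adjusted p = 9.55e-13). Its v-src arrays lay above all empty vector arrays. Etv4, an ETS transcription factor downstream of ERK, went from 132, 204 and 204 to 1034, 1099.6 and 985, with 2.41 ± 0.30, again without overlap. The AP-1 subunit Fosl1 rose by 2.19, the phosphatases Dusp5 and Dusp4 by 2.02 and 1.88, and the EGF receptor ligands Ereg and Hbegf by 1.96 and 1.41. Immediate early genes differed among themselves: Junb rose by 1.02, Egr1 was at -0.13 and not called, and Fos was at -0.75, a fall that was not called when any of the v-src arrays or empty vector replicate 2 or 3 was left out (adjusted p up to 0.252). Spry1, another feedback inhibitor, fell by 0.83 while its relative Spry2 rose by 1.21.

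Of 20 genes of interleukin-6 and STAT3 signalling, 10 rose and 1 fell (median 0.62). Socs3, the inhibitor that STAT3 induces, went from 1877, 990.3 and 1177 to 7217, 7124 and 6734, with 2.41 ± 0.27. The groups did not overlap. Il6 itself was near background with the empty vector, at 3.01, 17.7 and 10.2, and at 312, 185 and 231 with v-src, a difference of 2.99 ± 0.33. The siderophore-binding Lcn2 rose by 2.86, Bcl3 by 2.42, Socs1 by 1.32 and Cebpd by 1.20, while Stat3 (0.08), the receptor chain Il6st (-0.06) and Jak1 (-0.03) were not called. The single fall, of Osm by 0.64, was lost without empty vector replicate 1 or 3 or v-src replicate 2 or 3 (adjusted p up to 0.143). Within the interleukin-1 family, where 3 of 7 rose, Il33 and the receptor chain Il1rap (1.45) rose and the receptor antagonist Il1rn fell by 1.67.

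The NF-kB list had no common direction, with 5 of 18 genes higher and 3 lower (median -0.05), where 13.8% and 15.1% of all genes were. The lipopolysaccharide co-receptor Cd14 (2.46) and Tnfaip2 (1.67) rose. The feedback inhibitor Tnfaip3 (-0.96) and the adhesion receptor Vcam1 (-1.28) fell. Chemokines went both ways, 4 of 12 up and 3 down. The monocyte attractant Ccl2 went from 300.1, 307 and 337 to 1785, 1428 and 1645, with 2.28 ± 0.18, and Ccl7 (1.92) and Ccl8 (2.54) rose with it. Cxcl12, the stromal ligand of CXCR4, went from 17776, 13372 and 10987 to 3179, 3916 and 3098, with -2.02 ± 0.14. In both Ccl2 and Cxcl12 the 2 groups of arrays did not overlap.

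Interferon-response genes had the largest share of rises among the lists described here. Interferons signal through JAK kinases and act on genes with antiviral products, many of which carry an interferon-stimulated response element upstream. The RefSeq sequences of the 250 bases before the start site (build GRCm38.p6) were matched by symbol to 33 of the 39 tested genes of the list. Promoters on 1 chromosome were left out of every motif search, and Iigp1 was not among the 33 genes. The stretches around the motif in the 4 members with the largest rise that hold it are shown because they carry the element class these genes are known for; capitals mark each match to TTTC, any 2 bases and TTTC again, searched on both strands, where overlapping matches run together.
Ifit3: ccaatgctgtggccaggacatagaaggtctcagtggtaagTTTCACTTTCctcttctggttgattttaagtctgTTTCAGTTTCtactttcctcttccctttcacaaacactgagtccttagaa
Rsad2: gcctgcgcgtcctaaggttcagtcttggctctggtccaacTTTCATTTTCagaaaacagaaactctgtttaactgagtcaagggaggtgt
Gbp3: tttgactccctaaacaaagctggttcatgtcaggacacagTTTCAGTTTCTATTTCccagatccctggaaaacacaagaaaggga
Ifit1: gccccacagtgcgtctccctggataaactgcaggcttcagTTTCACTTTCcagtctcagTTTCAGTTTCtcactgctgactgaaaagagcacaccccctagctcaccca
These lie at chr19:34583333-34583456 on the plus strand, chr12:26456523-26456612 on the minus strand, chr3:142559959-142560043 on the plus strand and chr19:34640745-34640853 on the plus strand. The motif was present upstream of 14 of the 33 genes (42.4%) and of 327 of the 10489 tested genes with a promoter searched (3.12%). A gene with more than 1 promoter was counted when any of them held a match. Of the 14 genes with a match 13 rose, with a median difference of 2.62, and of the 19 without a match 12 rose, with a median of 0.82. A match is a description of letters and not of a bound site.

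In all, 30 of the 39 interferon-response genes rose and 1 fell, with a median of 1.84. Ifit3, an antiviral protein that binds other IFIT proteins, was at 394, 471 and 300.1 with the empty vector and at 6769, 6373 and 6999.9 with v-src. The v-src signals lay above every empty vector signal, with a difference of 4.05 ± 0.31, a fold of 16.6 (adjusted p = 4.68e-10). Iigp1, an immunity-related GTPase, went from 339, 360.02 and 168 to 4025, 3663 and 3676, with 3.68 ± 0.21 (adjusted p = 2.06e-12). Irf7, the transcription factor that amplifies interferon production, went from 322, 327 and 171 to 2538, 2129 and 2369, with 3.04 ± 0.36. Among the empty vector arrays, replicate 3 was the lowest in each of these 3 genes, and without it the list still had 29 to 31 rises, the range over all 6 leave-one-out fits. Further down, Rsad2 (3.47), Oasl2 (3.27), the guanylate-binding protein Gbp3 (3.23), the deconjugating protease Usp18 (3.09), Cxcl10 (2.66) and the tetherin Bst2 (2.03) rose. The transcription factor Stat2 rose from 804, 806 and 396 to 2066, 2033 and 1804, with 1.59 ± 0.29. The interferon gene Ifnb1 was at 123, 68.9 and 139 with the empty vector and 87.9, 130.1 and 155 with v-src, values that overlapped (0.16 ± 0.32, adjusted p = 0.774). The receptor chains Ifnar1 (-0.09) and Ifnar2 (0.27) and the sensor Eif2ak2 (0.24) were not called either. The 1 fall, of the receptor chain Ifngr1 by 0.54, was lost without empty vector replicate 1 or 3 or v-src replicate 2 (adjusted p up to 0.132).

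**Figure D3:**
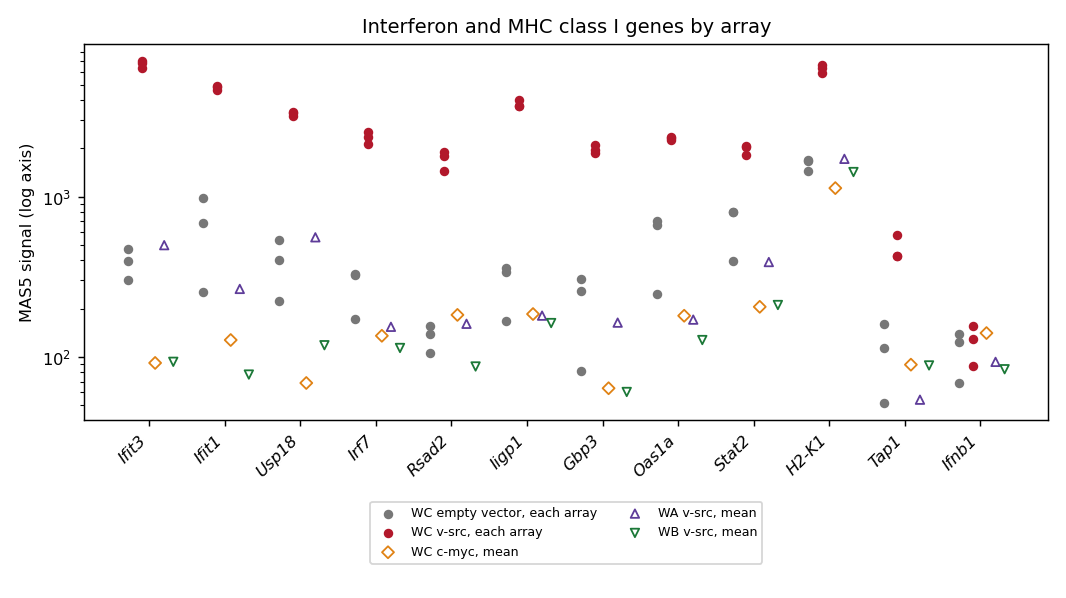
MAS5 signal on a log axis of 12 genes of interferon signalling and class I antigen presentation, with each of the 3 empty vector (grey) and 3 v-src (red) arrays of WC and the group means of WC with c-myc, WA with v-src and WB with v-src (open symbols). In all genes shown except Ifnb1 the v-src arrays of WC lie above every other symbol.

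The rise was added to a level that WC held already. With the empty vector, 23 of the 39 genes were higher in WC than in WA and 24 higher than in WB, where 15.1% and 16% of all genes were higher and 29.8% and 32.5% were called in either direction. The mean log2 value over the list was 8.67 in WC with the empty vector, 7.66 in WA and 7.53 in WB. With v-src it reached 10.41 in WC, and with the c-myc vector in WC it was 7.84. WC with v-src had the highest mean of all 9 groups for 34 of the 39 genes (87.2%), against 1515 of all 13018 genes (11.6%). The difference that v-src made had a median of 0.54 in WA and 0.28 in WB, with 17 and 3 of the 39 members called higher, against 13.2% and 12% of all genes. For 14 of the 39 genes the v-src effect was larger in WC than in both other lines by the test of the differences, where 1.71% of all genes were so, and for 0 it was smaller than in both; 9 of the 14 kept both calls in all 17 fits that left out 1 array of the 6 groups compared. Iigp1 was among them, with effects of 0.14 in WA and 0.11 in WB (adjusted p of the differences 2.37e-08 and 8.34e-08). Ifit3 differed from WA as well (2.36, adjusted p = 0.0184) and from WB (0.52, adjusted p = 2.35e-05), but lost the first of these without WA empty vector or v-src replicate 3. Of the macrophage and blood cell markers, Cd53 and Mcpt8 were called higher and the other 9 of 11 tested were not called. Mean signals were under 100 in both groups for Ptprc but not for Csf1r (429.7 and 540.6), and the part of such cells in the interferon list was not tested.

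Genes of class I antigen presentation, many of them known interferon targets, rose too. Of 12 tested, 8 rose and 2 fell (median 1.06, against 0.04 in WA and 0.16 in WB). H2-K1, a class I heavy chain, went from 1697, 1437 and 1671 to 5918, 6345 and 6656, with 1.96 ± 0.17 (adjusted p = 3.17e-09) and no overlap. The peptide transporter subunit Tap1 rose by 2.01, the immunoproteasome subunit Psmb10 by 1.18 and the transactivator Nlrc5 by 1.55. The 2 falls were in the chaperones Calr (-0.26) and Canx (-0.22), and 0 were called without empty vector replicate 1 or 2 or v-src replicate 2, and 1 without v-src replicate 1 or 3.

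Most genes of glycolysis and lactate export rose. Of 18 tested, 12 rose and 0 fell, with a median of 0.91, beside 0.78 in WA and 0.90 in WB, where 14 and 13 rose (13.2% and 12% of all genes). The glucose transporter Slc2a1 went from 2041, 2337 and 1859 to 6699.9, 6944 and 7115, with 1.73 ± 0.10. Slc16a1, the monocarboxylate transporter MCT1, went from 1317, 1310.4 and 1601 to 6474, 6053 and 5924, with 2.11 ± 0.09. The v-src arrays of both transporters lay above all empty vector arrays. For Slc16a1 the effect was also larger than in WA (0.56, adjusted p = 2.37e-08) and WB (0.93, adjusted p = 3.64e-06). The lactate exporter Slc16a3 (2.54), pyruvate dehydrogenase kinase Pdk1 (1.68), phosphofructokinase Pfkp (1.27) and hexokinases Hk2 (1.09) and Hk1 (0.73) rose. The enzymes of the lower pathway Pgk1 (-0.07), Pgam1 (0.10), Pkm (-0.08) and Ldha (0.16) were not called.

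Among 24 further genes known to respond to hypoxia, 15 rose and 1 fell (median 0.91). Angptl4 rose by 2.86, the prolyl hydroxylase Egln3 by 2.88, Vegfa by 1.23, and Hif1a was at 0.34 and not called. Carbonic anhydrase 9 (Car9), an enzyme of acid export, went from 279, 212 and 89.8 to 1206, 1329.7 and 1097, with 2.62 ± 0.47 (adjusted p = 0.000135). Its effects in WA (0.37) and WB (-0.10) were smaller by the test of the differences (adjusted p = 0.0416 and 0.0162), but that call on both was kept in only 6 of the 17 fits that left out 1 array. Bnip3, a mitophagy receptor, rose by 1.73 ± 0.22, less than in WA (3.53) and WB (3.70), with adjusted p of 0.000516 and 0.000384. The fall of Adm, by 0.80, was lost without empty vector replicate 2 or v-src replicate 3 (adjusted p up to 0.0669).

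Hypoxia-inducible factors bind a core with the letters ACGTG. It was present in 11 of 17 promoters of the glycolysis list (64.7%) and 12 of 18 of the hypoxia list (66.7%), against 2557 of 10489 (24.4%), in 250 bases on either strand. In the glycolysis list 6 of the 11 genes with a match rose (median 0.43) and 5 of the 6 without one (median 0.97). In the hypoxia list 7 of the 12 with a match rose (median 1.04), and of the 6 without one 2 rose and 1 fell (median 0.45). Egln3 and Car9 are shown as members with a large rise that hold it, with the match in capitals; in Car9 it lies on the minus strand.
Egln3: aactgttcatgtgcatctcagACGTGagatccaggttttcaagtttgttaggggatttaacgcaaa
Car9: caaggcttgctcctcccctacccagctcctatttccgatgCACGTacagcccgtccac
They lie at chr12:54204059-54204124 on the minus strand and chr4:43506968-43507025 on the plus strand of GRCm38.p6. Of 2 other motifs searched the same way, 1 was the STAT site of TTC, any 3 bases and GAA. It lay upstream of 1 of 17 genes of the interleukin-6 list (5.88%) and 9 of 33 of the interferon list (27.3%), against 749 of 10489 (7.14%). The AP-1 site TGANTCA lay upstream of 1 of 18 genes of the ERK list (5.56%) and 4 of 12 of the metalloprotease list (33.3%), against 629 of 10489 (6%).

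The contractile apparatus fell almost throughout. Its genes encode actins, myosin light chains, calponins and tropomyosins, and many are known targets of serum response factor (SRF) with its cofactors MRTF, which respond to actin polymerization. Of 34 tested, 1 rose and 28 fell, with a median of -0.83. The count of falls was 25 to 27 when 1 of the 6 arrays was left out. Calponin 1 (Cnn1), a smooth muscle actin-binding protein, went from 4583, 4435 and 2825 to 107, 210.1 and 117, a difference of -4.59 ± 0.32, or 24.0-fold lower (adjusted p = 7.5e-11). Transgelin (Tagln), another actin-binding protein of smooth muscle, went from 17684, 15616 and 12936 to 1517, 1886 and 1645, with -3.17 ± 0.14. Smooth muscle alpha-actin (Acta2), a marker of myofibroblasts, went from 24291, 19712 and 16012 to 4201, 4736 and 4471, with -2.14 ± 0.13. In all 3 genes every v-src array lay below every empty vector array. Leiomodin (Lmod1, -4.27), myosin light chain Myl9 (-2.92), Fhl1 (-2.92), Actg2 (-2.33), Csrp1 (-1.97) and Srf itself (-1.29) also fell. Widely expressed members fell by less, such as Myh9 (-0.83), Tln1 (-0.82), Vcl (-1.03) and Tpm1 (-0.90), and Actb was at -0.21 and not called. The 1 rise was in the cofactor Mrtfb (0.41), for which another probe set had the opposite sign.

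**Figure D4:**
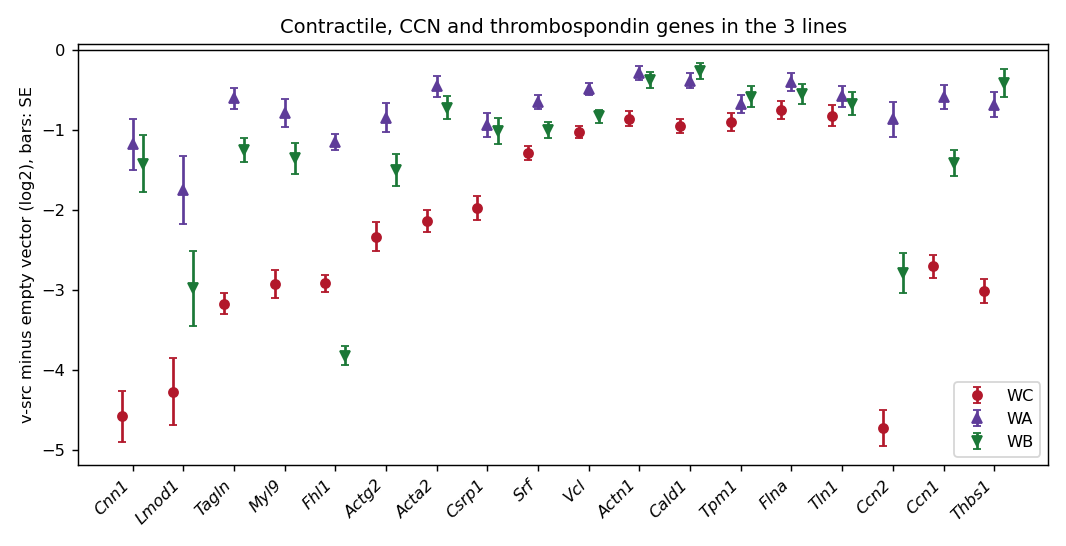
Log2 difference of v-src minus empty vector in WC (red circles), WA (purple upward triangles) and WB (green downward triangles), with bars for the SE of limma, for 15 contractile genes and the matricellular genes Ccn2, Ccn1 and Thbs1. All points lie below 0, and WC lies lowest for every gene shown except Fhl1, where WB does.

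Members of the list also fell in WA, with 23 of 34 called lower and a median of -0.47, and in WB, with 25 and -0.67, against 14.1% and 13.5% of all genes called lower. For 7 members the fall was larger in WC than in both, where 1.27% of all genes were lower in WC than in both, and 6 of the 7 kept this in all 17 leave-one-out fits. Cnn1 fell by 1.18 in WA and by 1.42 in WB (adjusted p of the differences 2.16e-05 and 0.000114). Tagln differed from WA (-0.60, adjusted p = 8.83e-09) and WB (-1.25, adjusted p = 9.68e-07) in the same direction, as did Acta2 (-0.45 and -0.72, adjusted p = 1.58e-06 and 4.36e-05). Mylk, the myosin light chain kinase, went the other way: it was at 0.57 and not called in WC, with -1.43 in WA and -0.85 in WB, a difference from both that was kept in 8 of the 17 fits.

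The CArG box, the site class that SRF is known to bind, was found in 250 bases upstream of 7 of 31 contractile genes (22.6%) and of 150 of 10489 genes in all (1.43%). All 7 genes with a match fell (median -1.03), as did 19 of the 24 without one (median -0.78), of which 1 rose. Myl9 and Srf are shown, chosen after their values were seen, with the box in capitals.
Myl9: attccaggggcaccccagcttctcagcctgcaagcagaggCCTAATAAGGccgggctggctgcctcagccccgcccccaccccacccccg
Srf: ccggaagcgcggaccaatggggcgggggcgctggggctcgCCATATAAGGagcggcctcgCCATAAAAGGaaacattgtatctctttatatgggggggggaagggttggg
They lie at chr2:156775263-156775352 on the plus strand and chr17:46556175-46556284 on the minus strand.

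Extracellular matrix genes fell more often than they rose, with exceptions of large size. Of 21 collagen chains, 2 rose and 12 fell (median -0.61). In WA 17 fell (median -1.08) and in WB 14 (median -0.95), against 14.1% and 13.5% of all genes called lower. By the test of the differences 4 chains were higher in WC than in both lines and 3 lower, where 1.71% and 1.27% of all genes were so. Col1a1, the main chain of type I collagen, went from 22738, 19407 and 15979 to 5097, 5729 and 5271, with -1.83 ± 0.13, without overlap. Its fall was larger than in WA (-0.74, adjusted p = 0.000356) and WB (-0.89, adjusted p = 0.00262). Col5a1 (-2.26), Col5a2 (-1.92), Col11a1 (-2.92) and Col12a1 (-2.21) fell further. Col18a1, a basement membrane chain, rose by 1.84, and the smaller rise of Col8a1 (0.52) was not called without v-src replicate 1, at 0.41. Of 23 proteoglycans and elastic fibre genes, 4 rose and 12 fell (median -0.72). Beside the rises of Dcn and Lum, fibulin-like Efemp1 rose by 1.74, while the leucine-rich proteoglycans asporin (Aspn, -3.07), osteoglycin (Ogn, -2.53) and Prelp (-2.46), the collagen crosslinking enzyme Lox (-1.17) and Fbln5 (-2.44) fell.

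Dcn and Lum responded differently in WC than in the other lines. In WA v-src changed Dcn by 3.33 and in WB by 0.91 (adjusted p of the differences 0.0037 and 3.29e-06), and the smaller effect in WB started from a mean signal of 8784 ± 1288 (SD, n = 3) with the empty vector and ended at 16436 ± 479 (SD, n = 2). In WA the mean signal went from 429.7 ± 221 (SD, n = 3) to 4059 ± 283 (SD, n = 3), and that of WC with v-src was 16429 ± 621 (SD, n = 3). For Lum the effects were 0.23 in WA and -0.06 in WB (adjusted p of the differences 4.46e-05 and 4.03e-05), and neither was called.

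Of 21 matricellular proteins and laminins, 3 rose and 12 fell (median -0.94). In WA 14 fell (median -0.86) and in WB 14 (median -1.36), against 14.1% and 13.5% of all genes called lower. By the test of the differences 3 members were lower in WC than in both lines and 1 higher, where 1.27% and 1.71% of all genes were so. Beside Ccn2, Thbs1, the TGF-beta activating thrombospondin, went from 19873, 16801 and 14397 to 1749.6, 2448 and 2068, with -3.01 ± 0.16, and Ccn1, an integrin ligand, fell by 2.70. The falls of these 3 genes were larger than in WA and WB: Ccn2 had -0.86 and -2.79, Thbs1 had -0.68 and -0.40, and Ccn1 had -0.58 and -1.41, with adjusted p of the 6 differences at most 0.000414. Periostin fell from 5403, 2066 and 2258 to 162, 288 and 188. Tenascin C (Tnc, 1.41), Ccn3 (2.11) and Lamb1 (0.73) rose. Fibronectin (Fn1) fell by 0.59, and Sparc by 1.18.

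Among 21 metalloproteases, 8 rose and 4 fell (median 0.38), where 13.8% of all genes rose and 15.1% fell. Mmp13 rose by 7.10, more than in WA (3.76, adjusted p = 1.15e-05) and WB (4.52, adjusted p = 0.000529). Mmp3 rose by 4.29, the aggrecanase Adamts4 by 2.49, and Adam8 by 2.77, while Adamts5 (-2.31) and the tolloid protease Tll1 (-3.01) fell. Mmp10 rose by 2.30, less than in WA (3.94) and WB (5.70), though this call on both was kept in 10 of the 17 leave-one-out fits. Mmp2 (-0.37), Mmp9 (0.59) and Mmp14 (0.19) were not called. Of 12 plasminogen activators, cathepsins and protease inhibitors, 4 rose and 4 fell. The urokinase receptor Plaur rose by 1.77, urokinase (Plau) itself was at -0.58 and not called, and the inhibitor Timp3 fell by 1.72.

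Integrins, cadherins and syndecans fell more often than they rose, 10 against 4 of 22, where 15.1% of all genes fell and 13.8% rose. The laminin receptor chain Itga6 rose by 2.62 and Itgb7 by 2.35. P-cadherin (Cdh3) fell by 3.57, Ncam1 by 2.37 and Itga8 by 2.02, and the common chain Itgb1 by 0.45. The gap junction protein Gjb2 was among the genes that differed most from both other lines. It went from 4415, 4393 and 5049.9 to 374, 401 and 435, with -3.44 ± 0.29 and no overlap, while its effects were 0.31 in WA and -0.09 in WB (adjusted p of the differences 1.42e-06 and 1.84e-05).

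Among 19 growth factor receptors 7 rose and 7 fell, where 13.8% of all genes rose and 15.1% fell. The 7 falls became 4 without empty vector replicate 1 or v-src replicate 3. The 2 PDGF receptor chains moved apart. Pdgfra went from 1755, 1306 and 1107 to 6389, 5185 and 4448, with 1.94 ± 0.19, and Pdgfrb from 4429, 3222 and 3239.9 to 868, 1079 and 742, with -1.99 ± 0.20. In neither did the groups overlap. The rise of Pdgfra had no counterpart in WA (-0.09) or WB (0.15), where it was not called, and the differences were called (adjusted p = 2.06e-05 and 0.000191). The insulin receptor Insr rose by 1.28, and Ddr1, a collagen receptor, and Fgfr2 fell by 1.81 and 1.25. Of 21 growth factors and IGF-binding proteins, 1 rose and 8 fell, beside the same shares of all genes, 13.8% and 15.1%. Igfbp3 rose by 2.24, joined by 1 more gene without empty vector replicate 1 and by 2 more without empty vector replicate 3. Tgfb2 (-1.65), Tgfb3 (-2.59), Igf2 (-1.67) and Igfbp7 (-2.24) fell. Other probe sets with a mean of at least 100 were at -0.13 for Igf2 and -1.26 for Igfbp7.

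BMP and Wnt pathway genes fell in 11 of 21 cases and rose in 4 (median -0.74), against 15.1% and 13.8% of all genes. The ligand Bmp4 fell by 2.57, and genes known as BMP targets fell with it, among them Smad6 (-2.23), Id3 (-1.59) and Atoh8 (-3.07). The 4 rises were all in secreted antagonists: follistatin (Fst, 3.41), gremlin (Grem1, 2.47), Dkk2 (2.53) and Sfrp1 (1.55). Other antagonists fell, namely Sfrp2 (-2.47) and Dkk3 (-1.67). The Wnt target Axin2 was at -0.09 and not called.

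The proliferation genes moved little, and over all genes in WC 13.8% rose and 15.1% fell. Of 29 DNA replication genes, 6 rose and 4 fell (median 0.05); the 6 rises became 2 without empty vector replicate 1 or 2 or v-src replicate 2 or 3, and 10 without empty vector replicate 3, and the 4 falls became 2 without empty vector replicate 3 or v-src replicate 3. Pcna was at 0.001. Of 29 mitotic genes, 0 rose and 5 fell (median -0.08); 2 were called lower without empty vector replicate 2 or 3 or v-src replicate 3, and 3 without v-src replicate 2, and 1 gene rose without empty vector replicate 3. Cdk1 (-0.04) and Top2a (-0.10) were not called. In WB, 15 of the 29 fell, with a median of -0.48, against 13.5% of all genes called lower there.

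Among 23 cyclins, their kinases and inhibitors, 5 rose and 5 fell, where 13.8% of all genes rose and 15.1% fell. Cyclin D2 (Ccnd2, -0.99) and the inhibitor p27 (Cdkn1b, -0.85) fell, Ccng2 (1.58) rose, and cyclin D1 (Ccnd1, 0.25) was not called. The p53 target and cell cycle inhibitor p21 (Cdkn1a) was at 1562, 2005 and 999 with the empty vector and 2225, 1635 and 2423 with v-src. These values overlapped, and the difference of 0.49 ± 0.24 was not called (adjusted p = 0.141). It was called without empty vector replicate 2, at 0.72, and with the mean of the gene's probe sets, at 0.91, since a second probe set went from a mean of 546.7 to 1375, a difference of 1.33. In the other lines Cdkn1a rose by 2.42 and 2.24, and the effects differed from that in WC (adjusted p = 0.000607 and 0.00273). With the mean of probe sets these differences were -1.46 and -1.26 and were still called. The p16 and p19 locus Cdkn2a was 0.59 higher, a call lost without empty vector replicate 3 at 0.39. Of 22 p53 targets, 2 rose and 11 fell (median -0.31): Pmaip1 (1.60) and Mdm2 (0.71) rose, and Ddit4l (-1.47) and Perp (-1.34) fell most.

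Ribosome biogenesis, known to follow Myc, gave 4 rises and 1 fall of 32 (median 0.06), where 13.8% of all genes rose and 15.1% fell. The 1 fall, of Bop1 by 0.24, was lost without empty vector replicate 3 or v-src replicate 1 or 3. The mouse Myc gene was at 0.49, a rise that was not called without empty vector replicate 1 (adjusted p = 0.0691). Of 29 stress and unfolded protein response genes, 2 rose and 10 fell. Atf3, a stress-induced factor, rose by 1.89, while the amino acid transporters Slc7a5 (-1.31) and Slc3a2 (-0.88), which pair as a heterodimer, and Atf5 (-1.21) fell. Of 15 cholesterol synthesis genes, 2 rose and 5 fell in WC (median -0.25), where 9 rose in WB (median 0.40, with 12% of all genes called higher there). The 5 falls in WC became 3 without empty vector replicate 2 and 2 without v-src replicate 3, and the 2 rises became 1 without empty vector replicate 3. Mevalonate kinase (Mvk) fell by 0.96.

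The remaining lists were small or mixed, and their counts stand beside 13.8% of all genes that rose and 15.1% that fell. Of the sex chromosome genes, Xist (0.05), Kdm5d (-0.20) and Uty (-0.21) were not called. Heme oxygenase Hmox1 (1.48) led the 5 rises among 15 antioxidant genes, of which 3 fell, and 1 without v-src replicate 1. The prostaglandin list had 3 rises, 5 without empty vector replicate 3, and 1 fall among 9 genes, with Akr1c18 highest; Ptgs2 (0.60) was not called. Of 16 Hox genes 2 rose and 0 fell, Hoxa3 (1.22) and Hoxa5 (0.88), the latter not called without empty vector replicate 2 or v-src replicate 2 or 3; both had another probe set of the opposite sign. Of 11 imprinted genes, 1 rose and 6 fell, led by Mest (-3.58), Meg3 (-1.79) and Igf2 (-1.67). Other probe sets of Meg3 with a mean of at least 100 ranged from -2.60 to 0.13, and another of Igf2 was at -0.13. The 1 rise, of Igf2r by 0.47, was lost without empty vector replicate 3. Mest went from 6013, 2659 and 1602 to 195, 247 and 236, further than in WA (-0.78) and WB (0.54), with adjusted p of 0.0059 and 0.000257. Among 11 factors of epithelial-mesenchymal transition 4 rose and 2 fell: Foxc2 (0.99) and Zeb2 (0.82) rose most, and Klf4 (-1.64) and Snai2 (-0.69) fell.

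The comparison with the other lines used separate arrays throughout, since WC shared neither its v-src nor its empty vector arrays with WA or WB. v-src changed 3560 genes in WA (27.3%) and 3320 in WB (25.5%). Of the 3765 genes called in WC, 3271 (86.9%) had the same sign in WA and 3184 (84.6%) in WB, and 1346 (35.8%) were called with the same sign in both, 613 upward and 733 downward. Another 1140 (30.3%) were called in WC and in neither other line, which does not show that they differ. Across genes, the effect in WC correlated with that in WA at 0.616 and with that in WB at 0.605, a description over 13018 genes that share probes and scaling. A test of the differences themselves called 931 genes against WA (7.15%), 4.03% of all genes higher in WC and 3.13% lower, and 1181 against WB (9.07%), 4.84% higher and 4.23% lower. The latter count fell to 629 without WB v-src replicate 2 and to 762 without WB v-src replicate 3. In 388 genes (2.98%) the effect in WC differed from both, 223 of them higher (1.71%) and 165 lower (1.27%). Of the 388, 192 kept both calls in all 17 leave-one-out fits.

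Of the 223 higher genes 171 rose in WC, and of the 165 lower genes 115 fell there. Among the others, 20 rose in WC but by less than in WA and WB, 10 fell by less, and 72 were not called in WC. The rises beyond both lines included Ccl2 (-0.58 in WA and 0.21 in WB), Dusp6 (1.60 and 1.58) and Etv4 (-0.01 and 0.13), with adjusted p of the 6 differences at most 0.00206. Cxcl12 fell further than in WA (-0.65, adjusted p = 5.8e-05) and WB (-1.06, adjusted p = 0.00415). The calls on Ccl2, Dusp6, Etv4 and Cxcl12 were kept in all 17 leave-one-out fits. With the mean of probe sets Cxcl12 no longer differed from WB by the test (0.08, adjusted p = 0.926). In 19 genes the effect was of opposite direction in WC and in both other lines, each called, 11 of them higher in WC and 8 lower. Flrt2, an adhesion protein, was among the first (0.77 in WC, -0.95 in WA and -1.20 in WB), and the signalling adaptor Grb14 (-1.08, 1.03 and 2.48), Peg3 (-0.70, 1.05 and 1.35) and Btg2 (-0.63, 0.39 and 0.62) among the second; these 4 were chosen after their values were seen.

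**Figure D5:**
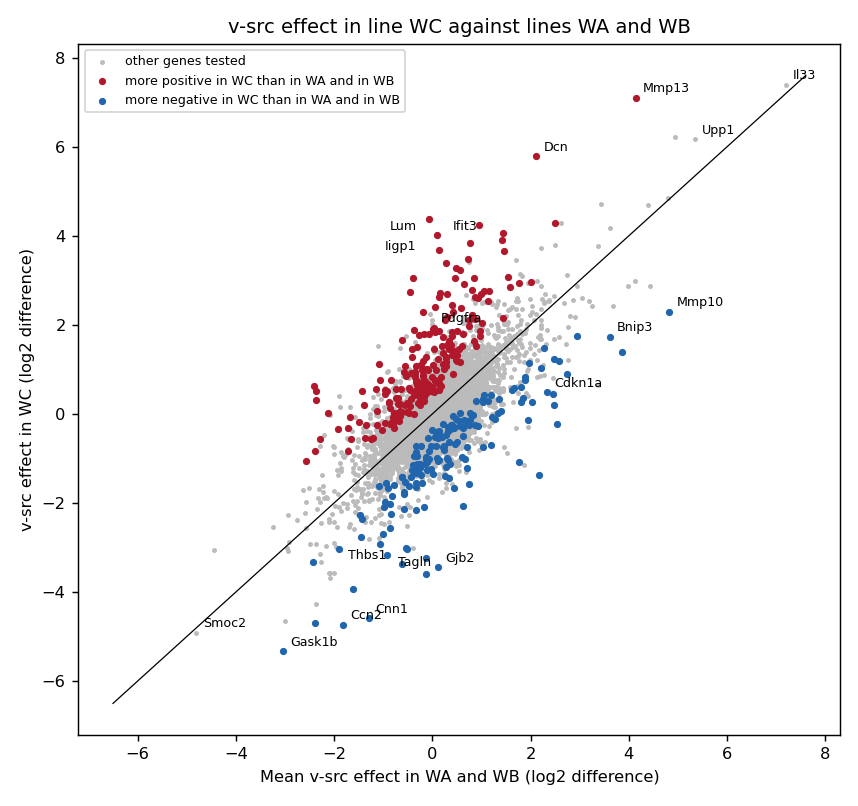
The v-src effect in WC (vertical axis) against the mean of the effects in WA and WB (horizontal axis), both as log2 differences, with 1 point for each of 13018 genes and a line where both are equal. Coloured points are the genes whose effect in WC was more positive (red, 223) or more negative (blue, 165) than in both other lines; Dcn, Lum and Mmp13 lie far above the line, and Cnn1, Ccn2 and Gjb2 far below it.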

How the data were processed

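Total RNA of cells lysed in the dish was hybridized as biotinylated cRNA to Affymetrix arrays, per the labels' protocols. The authors deposited linear intensity values of 45101 probe sets, made with MAS5 per the submitters' processing notes; its version, probe masking and detection calls are not given in the sources used here. All 26 arrays shared a mean of 500 once 2% of probe sets were trimmed at each end. The number of arrays limits the precision. Groups came from the titles, and a free-text description that speaks of embryos was not used. Of the probe sets, 34945 had 1 gene symbol in the platform annotation, 932 had several, 9160 were unnamed and 64 were controls; 34741 gene IDs were found in RefSeq.

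From the deposited intensity, log2(value + 23) was taken, the pseudocount being the 20th percentile of all values. Differences on this scale understate the change of low signals. Probe sets at or under the 40th percentile of mean log2 were left out, and the highest probe set of each gene was kept, 13018 genes of 18193. Among the 201 named genes, 99 had another probe set with a mean of at least 100, and 17 of these 172 probe sets, in 15 genes, had the opposite sign. limma 3.58.1 in R 4.3.3 fitted 9 group means to 26 arrays with an intensity trend (17 residual and 6.2 prior degrees of freedom), with Benjamini-Hochberg adjustment over all genes. The difference between lines was a contrast of the 2 effects in the same fit. The script was tested on simulated data.

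Named genes were the 12 largest rises and falls whose groups do not overlap and reach a signal of 100, up to 3 called members of each of 41 lists in each direction, the 8 genes that differed most from both other lines in each direction, and a few fixed genes; other list members are named where a group is described. Lists held 823 genes, of which 774 had a probe set. The members, lists, rules and alternatives were chosen with earlier results of these data known. Replicate numbers were checked for pairing. Alternatives were the 6 arrays alone, the replicate number as a block, quantile normalization, no filter, pseudocounts of 100 and 1, the mean of a gene's probe sets, no intensity trend, and leaving out each array. Motifs were searched with Python 3.11.15 in the 250 bases upstream of RefSeq genes, with the promoters on 1 chromosome left out.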

Additional observations from a re-analysis of the deposited data

Results flagged for a closer look

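In 55 of the 201 genes named by the rule the v-src effect in WC differed from that in WA and WB in the same direction. Each difference was tested (limma, adjusted p at most 0.0483 against WA and 0.0432 against WB). Over all genes tested, 388 of 13018 (2.98%) differed in this way. The rule itself took up to 8 genes in each direction by this test, and most others by a call in WC. The count of 55 is therefore partly set by the rule. The effect was more positive in WC in 30 of the 55 and more negative in 25. The values below are the effect in WC minus the mean of the effects in WA and WB, on the log2 scale, and 38 of the 55 kept both calls in all 17 fits that left out 1 array. With the mean of a gene's probe sets 8 of the 55 lost a call, namely Col5a1, Ctnnd1, Cxcl12, Igfbp7, Insr, Nfkbiz, Tnc and Tnfaip3.

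Among genes of the interferon response and of inflammation, more positive effects were found for the interferon-induced Ifit1bl1 (4.44), Iigp1 (3.55), Mndal (3.28), Ifi47 (3.20), Rsad2 (2.75) and Ifit3 (2.62), for the class I chain H2-K1 (1.22) and for the chemokines Ccl2 (2.46), Ccl7 (1.90) and Ccl8 (1.41). More negative effects were found for Ppbp (-3.54), which encodes a platelet chemokine, and for Cxcl15 (-2.70) and Cxcl12 (-1.16). The receptor antagonist Il1rn (-2.12) and the NF-kB regulators Tnfaip3 (-1.56), Nfkbiz (-0.80) and Nfkbia (-0.63) were also more negative. The call on Nfkbiz was kept in 10, that on Tnfaip3 in 12, that on Ccl8 in 10, that on Cxcl15 in 7 and that on Il1rn in 3 of the 17 fits.

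In the matrix and protease group the effect was more positive for Lum (3.93), Dcn (3.67), Mmp13 (2.96), Col8a1 (1.95), Col18a1 (1.79), Adam8 (1.62) and Tnc (0.98). It was more negative for the collagen chains Col2a1 (-2.29), Col1a1 (-1.02) and Col5a1 (-0.79) and for Ccn2 (-2.91) and Igfbp7 (-1.40). Contractile Cnn1 (-3.29) and Tagln (-2.25) and the adhesion genes Gjb2 (-3.56), Ctnnd1 (-0.86) and Pxn (-0.77) were more negative as well, while the integrin chain Itga6 (1.76) was more positive. Of these, Col5a1 was kept in 9, Ctnnd1 in 10 and Pxn in 11 of the 17 fits.

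Signalling genes with a more positive effect were Etv4 (2.35), Pdgfra (1.90), Insr (1.42), Dusp6 (1.27), Dok1 (1.25) and Spry1 (1.56). Of these Spry1 fell in all 3 lines, by least in WC. Fos was lower (-1.44) and kept in 4 fits, and the kinase inhibitor Cdkn1a (-1.84), the adaptor Grb14 (-2.83) and the calcineurin regulator Rcan2 (-3.11) were lower in all 17. For Cdkn1a a second probe set gave 1.33 in WC, and with the mean of its probe sets the effect was still lower than in WA (-1.46) and WB (-1.26).

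The other genes with a more positive effect in WC were Nfe2l2 (0.48), Foxc2 (1.20), Slc16a1 (1.37), Tcim (1.79), Cacnb2 (3.10) and Plac8 (3.45), and those with a more negative effect were Mest (-3.46), Cdo1 (-2.76), Dhrs3 (-2.30) and Gask1b (-2.30). The lactate transporter Slc16a1 is among the former and the imprinted gene Mest and the cysteine dioxygenase Cdo1 are among the latter. Nfe2l2 kept both calls in 6 of the 17 fits.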

How the results depend on the processing

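The 3765 genes called in WC became 3046 with the 6 WC arrays alone, 3950 with quantile normalization, 3724 without a filter, 3894 and 3688 with pseudocounts of 100 and 1, 3666 with the mean of a gene's probe sets and 3667 without an intensity trend. Between 3193 and 3609 were called when 1 of the 6 WC arrays was left out. The 931 genes that differed from WA ranged from 722 to 954 when 1 array was left out, the 1181 that differed from WB from 629 to 1293, and the 388 that differed from both from 268 to 433. All other settings left these counts within 1.5 times of the values given. Of the 201 named genes, 18 lost their call with the 6 arrays alone and 9 with the mean of probe sets, where the value of Lss in WC also reversed, at -0.0109. With 1 WC array left out, 11 to 20 lost it. Replicate numbers did not pair the samples: deviations from the group means correlated at -0.073, -0.014 and 0.093 between WC arrays of the same number. With the replicate number as a block, 3736 genes were called in WC. Signals near background limit low genes, the pseudocount shrinks their differences, and 3 arrays a group of 1 line say nothing of other WC infections.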

Other observations

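Some further genes with large differences lie outside the lists and were chosen after their values were seen. In the Notch pathway, the ligand Jag1 went from 1748, 1751 and 1146 to 274, 276 and 269, a log2 difference of -2.38 ± 0.22 (adjusted p = 1.12e-08 by limma), and the target Hes1 from 1055, 1058 and 934 to 178, 151 and 212, with -2.36 ± 0.11 (adjusted p = 1.19e-13). In neither did the groups overlap. The effect on Hes1 was more negative than in WA (-1.44) and WB (-1.43), with adjusted p of 0.000547 and 0.000972. Metallothionein 1 (Mt1), which binds zinc and copper, went from 1405, 1852 and 1562 to 12044, 12714 and 12857, with 2.96 ± 0.16. Regulators of G protein signalling rose, Rgs16 by 3.65 and Rgs17 by 3.08, and so did the semaphorins Sema6d (3.91) and Sema7a (2.87) and the growth cone protein Gap43 (3.77). Endothelin 1 (Edn1, -3.33), the pentraxin Ptx3 (-2.16), the TEAD cofactor Vgll3 (-2.55) and the Cdc42 effector Cdc42ep3 (-3.03) fell.

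A few genes that v-src changed in both other lines were not called in WC. Cd24a, a small glycosylated surface protein, was at 10535, 8985 and 9212 with the empty vector and 7717, 8424 and 8292 with v-src, a difference of -0.23 ± 0.16 (adjusted p = 0.333), where it rose by 2.85 in WA and 2.22 in WB. The differences between lines were called (adjusted p = 8.83e-09 and 5.59e-07). Ptges, the prostaglandin E synthase, was at 0.45 ± 0.22 in WC (adjusted p = 0.136), with 3.19 in WA and 1.73 in WB (adjusted p of the differences 2.47e-06 and 0.0157), of which both calls were kept in 16 of the 17 leave-one-out fits. These genes too were chosen after their values were seen.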
